A study of Homo sapiens with 15 samples.

Results

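The 33 genes described here encode the enzymes of cholesterol and fatty acid synthesis and the factors that regulate them. They were taken by symbol from a count table of 60671 genes, and all 33 were found and passed the filter on low counts. They comprise 3 regulators, 7 genes of the mevalonate arm, 11 of the sterol arm, 1 sterol carrier and 11 of the fatty acid arm. The cells were HT115, an established human colorectal cancer line, in 5 groups of 3 libraries that all received 0.5 µg/ml doxycycline for 24 h. The drug switched on V5-tagged wild-type SOX9 (CSOX9), a mutant form of SOX9 (M228, M303 or M379), or GFP in the control cells. M303 is truncated, per the series text. The sources used here give no meaning for M228 and M379, and do not say whether a line is 1 clone. The question was whether SOX9 forms moved these genes, and whether the genes differed by replicate number within the groups. The labels do not say whether replicate libraries were separate cultures, or what a replicate number stands for. The p-values thus measure library-to-library spread only, and this may be technical.

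Cells make cholesterol from acetyl-CoA through mevalonate, the isoprenoids, squalene and a series of sterols, and they make fatty acids from the same acetyl-CoA through malonyl-CoA. Both routes are controlled by the SREBP transcription factors, which stay in the endoplasmic reticulum with their escort SCAP while sterols are plentiful and reach the nucleus after cleavage when sterols run low. INSIG proteins hold SCAP in place, and INSIG1 is itself a target of the SREBPs. In intestinal epithelium these pathways feed membrane growth, and colorectal tumours are known for high fatty acid synthase.

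The promoters of the 5 genes with the smallest adjusted p in the replicate comparison are shown first, since SREBPs act through short elements in the promoters of such genes. Each line gives the 250 bases before the start site of the RefSeq promoter table, GRCh38.p14, 5′ to 3′ on the gene's own strand. Capitals mark TCACNCC, the core of many sterol regulatory elements, CCAAT, the box bound by NF-Y, and CACGTG, the E-box, each on either strand.
SREBF2, chr22:41832855-41833104, plus strand: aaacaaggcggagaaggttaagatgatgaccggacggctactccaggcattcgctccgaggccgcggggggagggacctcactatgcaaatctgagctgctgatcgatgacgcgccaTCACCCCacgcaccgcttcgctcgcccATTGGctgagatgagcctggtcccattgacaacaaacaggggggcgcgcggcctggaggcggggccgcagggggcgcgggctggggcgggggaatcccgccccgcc
INSIG1, chr7:155297628-155297877, plus strand: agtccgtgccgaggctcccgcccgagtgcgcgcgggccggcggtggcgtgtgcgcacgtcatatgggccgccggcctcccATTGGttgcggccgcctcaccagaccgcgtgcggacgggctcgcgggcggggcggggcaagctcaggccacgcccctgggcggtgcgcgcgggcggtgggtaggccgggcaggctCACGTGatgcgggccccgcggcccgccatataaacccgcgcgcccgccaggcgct
FADS1, chr11:61817004-61817253, minus strand: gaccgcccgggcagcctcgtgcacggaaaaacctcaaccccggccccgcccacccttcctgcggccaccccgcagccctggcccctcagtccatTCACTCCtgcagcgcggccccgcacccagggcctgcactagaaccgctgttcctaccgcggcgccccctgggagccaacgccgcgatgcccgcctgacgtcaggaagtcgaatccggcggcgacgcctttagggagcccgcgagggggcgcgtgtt
IDI1, chr10:1049120-1049369, minus strand: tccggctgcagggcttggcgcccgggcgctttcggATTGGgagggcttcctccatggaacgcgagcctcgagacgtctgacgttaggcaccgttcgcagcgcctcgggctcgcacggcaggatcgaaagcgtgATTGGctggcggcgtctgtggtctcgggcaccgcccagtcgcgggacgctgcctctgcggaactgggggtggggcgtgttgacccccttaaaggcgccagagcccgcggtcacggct
MSMO1, chr4:165327419-165327668, plus strand: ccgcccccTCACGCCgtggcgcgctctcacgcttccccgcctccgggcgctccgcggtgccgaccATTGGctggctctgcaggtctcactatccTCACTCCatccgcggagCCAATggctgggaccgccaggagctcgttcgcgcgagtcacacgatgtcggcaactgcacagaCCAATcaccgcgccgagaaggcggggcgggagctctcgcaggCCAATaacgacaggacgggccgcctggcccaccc
The 7-letter core TCACNCC began 133 bases before the start in SREBF2, 156 before it in FADS1, and 242 and 156 before it in MSMO1. It was not among the letters of the INSIG1 and IDI1 windows. CCAAT, read here on the opposite strand as ATTGG, lay 106 bases before the start in SREBF2 and 170 before it in INSIG1, whose window also held CACGTG at 55. IDI1 held ATTGG at 215 and 117 bases before the start. MSMO1 held ATTGG at 185 and CCAAT itself at 139, 76 and 34, and the FADS1 window held neither. A window was present for 29 of the 33 genes, and ACAT2, FDFT1, SQLE and FASN had none. TCACNCC was found in 6 of the 29 (20.7%), against 13.5% of the promoters of 19061 genes. CCAAT was found in 19 of the 29 (65.5%), against 34.1% of the 19061. CACGTG was found in 2 of the 29 (6.9%), against 7.36%. Among the members with a window, those called higher in replicate 1 held TCACNCC in 4 of 13 and CCAAT in 10 of 13, and the others held them in 2 of 16 and 9 of 16. These matches describe letters and carry no test.

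M303 replicate 1 was the deepest library with 31704249 reads and GFP replicate 1 the shallowest with 3054755, and 3 reads, the limit that a count of 0 allows, correspond to 0.0896 to 0.912 CPM (counting error only). The fewest reads of any member in any library were 15, for FADS2. SOX9 averaged 213 CPM in CSOX9, 2105 in M228, 3008 in M303, 2215 in M379 and 119 in GFP, so every construct group lay above GFP. CSOX9 was much nearer to GFP than to the mutants. In comparisons of a mutant with CSOX9, the form of SOX9 and its read level thus cannot be told apart. All 9 colon epithelial markers had reads in every library. The summed level of 6 fibroblast markers was 3.35 to 6.28 CPM, that of 4 immune markers 0.065 to 1.22 CPM and that of 3 endothelial markers 0.0852 to 0.973 CPM, and CD3E and CDH5 had no read. GFP replicate 2 stood apart: ribosomal protein genes took 6.61% of its reads, compared with 3.42 to 4.52% elsewhere, and GFP had a median dispersion of 0.0975, against 0.0104 to 0.0232 in the SOX9 groups.

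Per length, FASN, the multi-enzyme synthase of palmitate, was the most abundant of the 33 at 63.8 ± 11.2 RPKM (mean ± SD over 15 libraries). FDFT1, which makes squalene, followed at 36.2 ± 6.54 RPKM and DHCR7, the last enzyme of cholesterol synthesis, at 31.8 ± 4.15 RPKM. The spreads of FDFT1 and DHCR7 overlapped. SCD, the desaturase that makes oleate, came next at 29.7 RPKM with the widest spread, 11 to 106 RPKM. At the other end stood LPIN1, a phosphatidate phosphatase of triglyceride synthesis, at 1.26 ± 0.469 RPKM and FADS2, a desaturase of polyunsaturated fatty acids, at 0.421 ± 0.0434 RPKM. CYP51A1, the lanosterol demethylase, stood at 2.90 RPKM, a level that is uncertain because 80.6% of its exon bases are shared with another gene on the same strand, where reads would not have been assigned. EBP shares 36.4% in the same way. HMGCS1 overlaps an opposite-strand gene over 37.7% of its exon bases, ACAT2 over 22.2%, FDPS 18.6% and IDI1 14.8%, and counting did not use strand. Reads of FDPS and HSD17B7 may also be split with near-identical pseudogenes, so their levels are uncertain.

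In the 10 comparisons between groups, none of the 33 genes was called by edgeR's quasi-likelihood test at an adjusted p under 0.05. DESeq2 also called 0 in each, and neither of these fits had a term for the replicate number. Without adjustment, p lay under 0.05 for 1 member in CSOX9 against GFP, 1 in M228 against GFP, 4 in M303 against GFP and 2 in M379 against GFP by edgeR. The number was 1 for M228 against CSOX9, 4 for M303 against CSOX9, and 0 for M379 against CSOX9 and for each comparison between mutants. DESeq2 gave the same numbers. Of all genes, edgeR gave an unadjusted p under 0.05 for 10.7%, 9.38%, 7.8% and 6.77% in CSOX9, M228, M303 and M379 against GFP, and for 6.65%, 6.31% and 4.7% in M228, M303 and M379 against CSOX9. Between mutants the share was 0.848 to 3.47%. With the replicate number as a block, edgeR gave such a p for 5, 1, 9 and 6 members in CSOX9, M228, M303 and M379 against GFP. The number was 3, 6 and 4 in M228, M303 and M379 against CSOX9, and 0 to 2 between mutants. The share of all genes at that p was not counted with the block, so these numbers cannot be set against it. After adjustment, edgeR with the block called ME1 in M228 against GFP (adjusted p = 0.0355), beside 1.12% of all genes. It called no other member. Without the block, calls after adjustment were few among all 16160 genes tested. Their share was 0.0309% in CSOX9 against GFP, 0.241% in M228 against GFP, 0.118% in M303 against GFP and 0.0371% in M379 against GFP. Against CSOX9 the shares were 0.569% for M228, 0.384% for M303 and 0.124% for M379. Between mutants they were 0.0124% for M303 against M228, 0.0433% for M379 against M228 and 0% for M379 against M303. At such shares, no call among 33 genes does not set them apart from the rest.

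**Figure D1:**
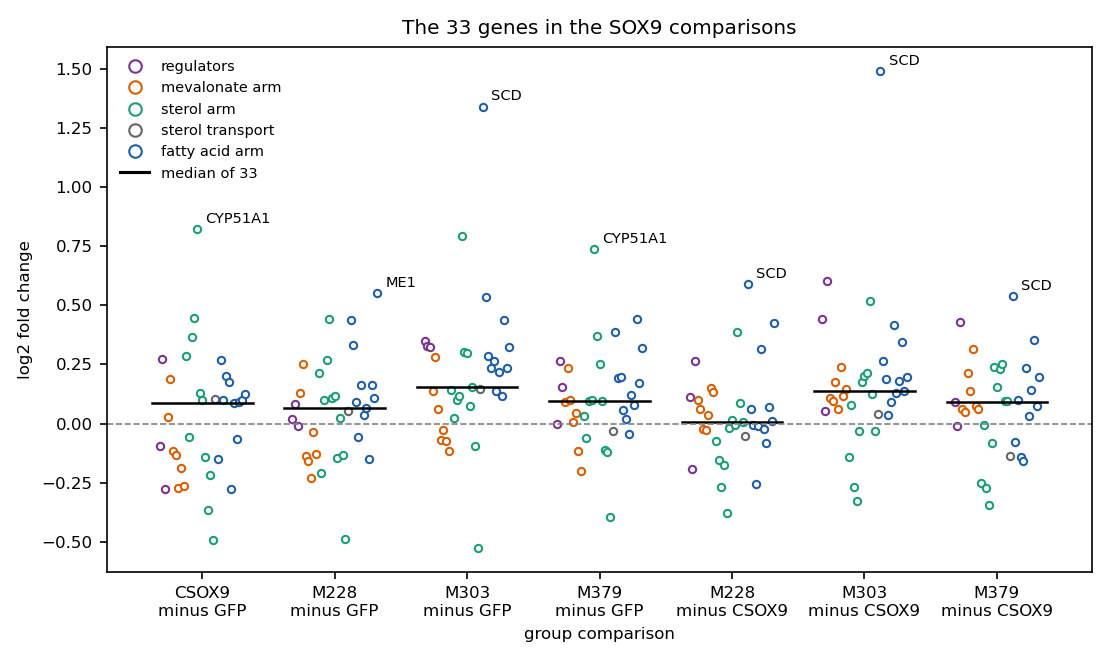
Log2 fold change of each of the 33 genes (open circles, coloured by role) in 7 comparisons, with the median as a black line and the gene with the largest change named. Medians lie between 0.01 and 0.16, and no gene was called in this fit, which has no replicate block. SCD in M303 stands highest at 1.34 against GFP and 1.49 against CSOX9.

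The median log2 fold change of the 33 genes was 0.16 in M303 against GFP, with 27 of 33 above 0, and the median of all genes there was 0.01. It was 0.09 in CSOX9 against GFP (18 of 33 above 0), 0.06 in M228 (21) and 0.09 in M379 (24). In M303 against GFP all 11 genes of the fatty acid arm were above 0, with a median of 0.26, and the 7 of the mevalonate arm had a median of -0.03. Leaving replicate 1 out of every group kept the medians of the 33 genes above 0. They were then 0.107, 0.126, 0.101 and 0.091 for CSOX9, M228, M303 and M379 against GFP. The genes above 0 numbered 20, 19, 23 and 24, in the same order. Leaving replicate 1 out on a single side moved the medians. Without GFP replicate 1 they were 0.183, 0.215, 0.325 and 0.237, in that order. Without replicate 1 of the SOX9 group the median was 0.005 in CSOX9 (17 above 0), -0.06 in M228 (13), -0.02 in M303 (14) and -0.02 in M379 (13). Without GFP replicate 2 it was -0.01 in CSOX9, -0.04 in M228, 0.15 in M303 and 0.09 in M379. GFP replicate 2 also set the arms apart, with a median deviation from the gene means of -0.56 (log2) in the fatty acid arm and 0.12 in the mevalonate and sterol arms.

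SCD had the largest change in M303 against GFP and in all 3 comparisons with CSOX9. Its level was 556, 128 and 148 CPM in the 3 M303 libraries, against 66.3, 96.2 and 134 CPM in CSOX9 and 189, 57.7 and 87.6 CPM in GFP. One M303 library, replicate 1, was far above the rest, and the others lay within the range of GFP. That range reached 189 CPM through GFP replicate 1, and at each equal replicate number M303 lay above GFP. M303 differed by 1.34 ± 0.54 (log2) over GFP (adjusted p = 0.577) and by 1.49 ± 0.53 over CSOX9 (adjusted p = 0.474), neither a call. With no filter on low counts both were calls, at 1.39 ± 0.18 and 1.52 ± 0.17. The SCD reads were the same in that fit, so its smaller standard errors do not mean closer agreement of the M303 libraries. Without M303 replicate 1 the values were 0.33 ± 0.44 over GFP and 0.48 ± 0.44 over CSOX9. Libraries 2 and 3 of every group alone gave 0.91 ± 0.26 over GFP and 0.25 ± 0.25 over CSOX9. With the replicate number as a block M303 was 1.235 ± 0.38 over GFP and 1.11 ± 0.39 over CSOX9, and none of these was a call. SCD in M228 was 0.59 ± 0.53 over CSOX9 and in M379 0.54 ± 0.53, also not called. Without replicate 1 of M228 or M379 both were 0.23 ± 0.58, without CSOX9 replicate 1 they were 0.36 ± 0.60 and 0.32 ± 0.60, and without CSOX9 replicate 3 they were 0.87 ± 0.61 and 0.82 ± 0.61.

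ME1, the malic enzyme that supplies NADPH for fatty acid synthesis, had 107, 134.7 and 96.4 CPM in M228, against 64.8, 80.1 and 84.4 CPM in GFP. All M228 libraries lay above all GFP libraries. ME1 thus differed by 0.55 ± 0.16 on the log2 scale (adjusted p = 0.211). With the replicate number as a block it was 0.55 ± 0.12 (adjusted p = 0.0355), a call, and the only one that the block gave among the 33. Equal numbers deviated together in this comparison (lowest correlation 0.169).

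FASN had 679.9, 656 and 710.1 CPM in M303 and 656, 651 and 748 CPM in M379, against 577, 357 and 579 CPM in GFP. Both mutants lay above GFP in every library, with the GFP libraries spread widely by replicate 2. Its log2 fold change was 0.44 ± 0.18 in M303 (adjusted p = 0.587) and 0.44 ± 0.18 in M379 (adjusted p = 0.693). FASN had 535, 508.5 and 566.5 CPM in CSOX9 and 539, 465 and 689 CPM in M228, which overlapped GFP.

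CYP51A1 had the largest change of CSOX9 against GFP. It stood at 13.6, 10.4 and 11.6 CPM in CSOX9, against 11.6, 2.21 and 8.26 CPM in GFP. The groups overlapped, and GFP replicate 2 was the lowest of the 15 libraries. Its log2 fold change of 0.82 ± 0.37 (adjusted p = 0.462) was 0.34 ± 0.24 without GFP replicate 2. In M379, CYP51A1 stood at 13.4, 9.03 and 11.3 CPM, 0.74 ± 0.37 over GFP and again the largest change of the 33 in that comparison, but 0.25 ± 0.24 without GFP replicate 2.

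SREBF1, which encodes the SREBP that favours fatty acid genes, had 231, 117 and 126 CPM in M303, against 103, 100.1 and 110.1 CPM in CSOX9. The groups did not overlap, although replicate 1 was again the highest M303 library. SREBF1 was higher in M303 by 0.60 ± 0.23 (log2), which was not a call (adjusted p = 0.549). Groups that did not overlap were found for no member in CSOX9 against GFP, 1 in M228 against GFP (ME1), 4 in M303 against GFP (ME1, LSS, FASN, DHCR7) and 3 in M379 against GFP (ME1, LSS, FASN), all above GFP. Of all genes, 11.8%, 9.54%, 9.36% and 8.74% did not overlap in those 4 comparisons, taken in that order. Against CSOX9 the members numbered 2 in M228 (FDPS, TM7SF2), 6 in M303 (SREBF1, FDPS, HSD17B7, FASN and ELOVL6 above, SC5D below) and 4 in M379 (SREBF1, HSD17B7, FASN, FADS2), while 15.7%, 18.5% and 19.2% of all genes did not overlap. The counts of members were near what these shares give for 33 genes, or below it.

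More members were called by replicate number than between groups, but these comparisons are unlike. The replicate comparison set 5 libraries against 10 with the groups in the model. A group comparison set 3 libraries against 3 and left differences by replicate number in the spread. Of the 33 genes, 15 were called higher in replicate 1 than in replicates 2 and 3, and 0 lower, in a fit with a mean per group and a term for replicate 1 (edgeR quasi-likelihood test over 16160 genes, Benjamini-Hochberg adjustment). That is 45.5% of the members, against 7.93% of all genes called higher and 7.52% called lower. The 33 genes were chosen with earlier results of these data known, so the excess over these shares is no independent support. The median log2 fold change was 0.25, with 28 of 33 above 0, against 0.005 over all genes. DESeq2 also called 15. Reads of the 33 genes made up 0.294 to 0.429% of the 5 replicate 1 libraries and 0.203 to 0.286% of the 10 others, ranges that did not overlap. The comparison of replicate 2 with replicate 3 called 0 of 33 members and 0 of all genes by edgeR, and DESeq2 was not run there. By edgeR, 7 members had an unadjusted p under 0.05 in it. The share of all genes at that p was not counted, so the 7 cannot be set against it.

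**Figure D2:**
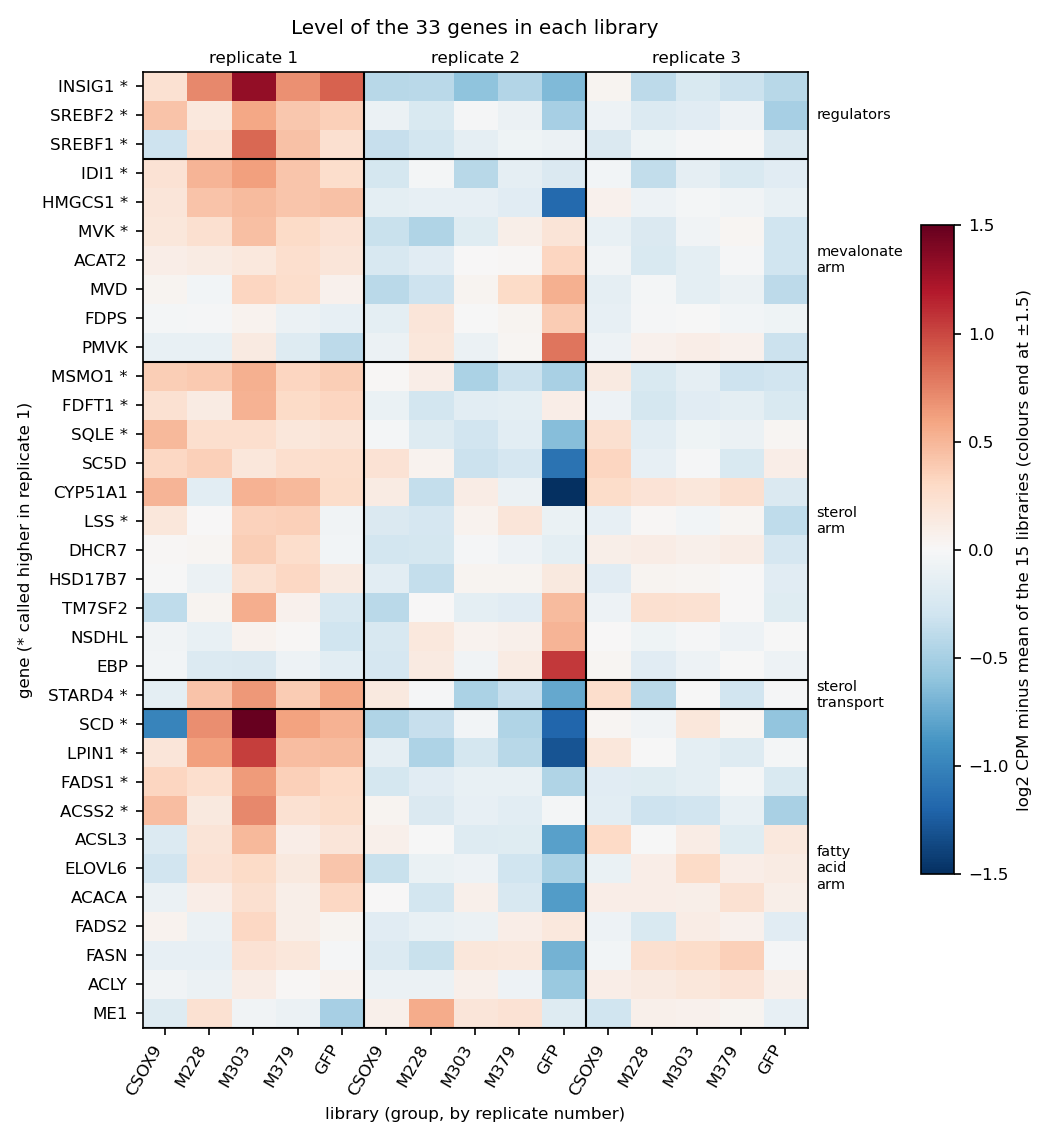
Log2 CPM of each gene (rows, by role) minus its mean over the 15 libraries (columns, by replicate number, with the groups in the same order in each block). Red is above and blue below the mean, an asterisk marks the 15 genes called higher in replicate 1, and GFP replicate 2 departs from the other libraries in both directions.

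The count leaned on single libraries. Without M303 replicate 1 it was 7 (SREBF2, INSIG1, IDI1, FDFT1, MSMO1, ACSS2, FADS1), beside 3.09% of all genes called higher, and without M228 replicate 1 it was 10, beside 4.16%. Without GFP replicate 2 it was 20, beside 17.3% of all genes. Replicate 1 against replicate 2 alone gave 7, beside 1.02% of all genes called higher, and against replicate 3 alone 18, beside 17.5%. No member was lower in any of these fits.

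The 3 regulators were all called. INSIG1, which keeps SCAP in the endoplasmic reticulum, had 69.4, 98.0, 148, 94.9 and 109.5 CPM in replicate 1 of CSOX9, M228, M303, M379 and GFP, against 37.4 to 60.8 CPM (median 44.7) in the 10 libraries of replicates 2 and 3. Every replicate 1 library lay above all 10 others. On the log2 scale the difference was 1.17 ± 0.14 (adjusted p = 0.000307), a 2.24-fold difference and the largest of the 33. By group the ratio of replicate 1 to the mean of the others was 1.32 in CSOX9, 2.17 in M228, 3.30 in M303, 2.08 in M379 and 2.67 in GFP. CSOX9 was the lowest and M303 the highest, which was not tested because each ratio has a single replicate 1 library.

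SREBF2, the SREBP that favours the cholesterol genes, whose promoter with its TCACCCC is printed above, had 243.5, 202, 270.0, 240.1 and 232 CPM in replicate 1 of the 5 groups in the same order, against 128 to 178 CPM (median 165). The ranges did not overlap. Its log2 fold change was 0.58 ± 0.07 (adjusted p = 0.000305). SREBF1 had 103, 148, 231, 172 and 151 CPM in replicate 1, against 100.1 to 127 CPM (median 118). The CSOX9 library was no higher than the others, with a ratio of 0.976, and M303 stood highest with 1.90. SREBF1 differed by 0.44 ± 0.10 (adjusted p = 0.0107).

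**Figure D3:**
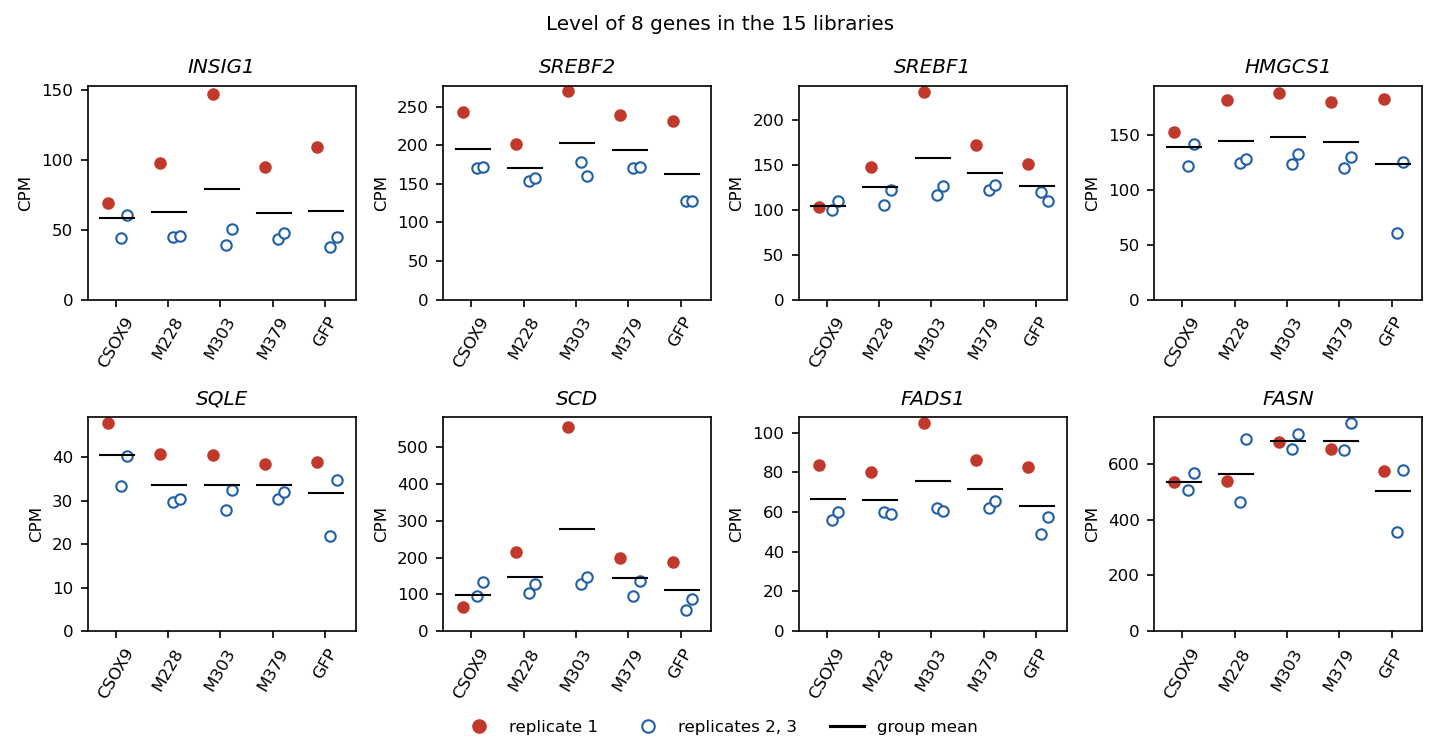
CPM of 8 genes in each library, by group, with replicate 1 in red, replicates 2 and 3 as open blue circles and the group mean as a line. INSIG1, SREBF2, HMGCS1, SQLE and FADS1 have replicate 1 above both others in all 5 groups, SREBF1 and SCD in 4 groups, and FASN in none.

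Of the 7 mevalonate genes, 3 were called. IDI1, which isomerises the first isoprenoid unit, had 49.0, 60.2, 64.8, 56.4 and 50.5 CPM in replicate 1 of CSOX9, M228, M303, M379 and GFP, against 31.6 to 41.2 CPM (median 36.9). The ranges were apart, with a log2 fold change of 0.61 ± 0.09 (adjusted p = 0.000792). HMGCS1, which condenses acetoacetyl-CoA with acetyl-CoA, had 153, 182, 188, 180.3 and 183 CPM in replicate 1, against 60.3 to 142 CPM (median 125). The lowest of these was GFP replicate 2. Its log2 fold change was 0.56 ± 0.14 (adjusted p = 0.0133). MVK, the mevalonate kinase, had 28.6, 30.2, 34.9, 31.0 and 29.5 CPM in replicate 1, against 18.6 to 29.1 CPM (median 23). One of the other libraries, GFP replicate 2, reached above CSOX9 replicate 1. MVK differed by 0.41 ± 0.09 (adjusted p = 0.0104). The 4 not called were ACAT2, the thiolase of the first step, at 0.24 ± 0.09, MVD, the decarboxylase, at 0.19 ± 0.13, FDPS, the farnesyl diphosphate synthase, at -0.06 ± 0.08 and PMVK, the phosphomevalonate kinase, at -0.18 ± 0.15.

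Of the 11 sterol genes, 4 were called. MSMO1, a methylsterol oxidase, had 86.6, 87.6, 97.1, 83.5 and 86.7 CPM in replicate 1, against 47.8 to 73.3 CPM (median 56.1). The ranges were apart, with a log2 fold change of 0.60 ± 0.09 (adjusted p = 0.00103). FDFT1, the squalene synthase, had 217, 201, 267, 226 and 232 CPM, against 153 to 199 CPM (median 167). It too had all of replicate 1 above the rest, at 0.44 ± 0.07 (adjusted p = 0.00127). SQLE, the squalene epoxidase and a rate-limiting step, had 47.8, 40.6, 40.5, 38.4 and 38.9 CPM, against 21.9 to 40.3 CPM (median 31.2). CSOX9 replicate 3 reached into the range of replicate 1. The log2 fold change of SQLE was 0.40 ± 0.10 (adjusted p = 0.0135). LSS, which closes the sterol rings, had the smallest called difference, 0.25 ± 0.07 (adjusted p = 0.0362), and it was called in 4 of the 15 fits that left out 1 library. The 7 not called ran from EBP, a sterol isomerase, at -0.21 ± 0.16 to SC5D, a sterol desaturase, at 0.37 ± 0.15. Between them lay CYP51A1, DHCR7, HSD17B7, TM7SF2 and NSDHL.

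STARD4, a cytosolic carrier of sterols, was higher in replicate 1 by 0.57 ± 0.17 on the log2 scale (adjusted p = 0.0319). Its ratio by group was 0.780 in CSOX9 and between 1.54 and 1.89 in the other 4 groups. It was called in 7 of the 15 fits that left out 1 library.

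**Figure D4:**
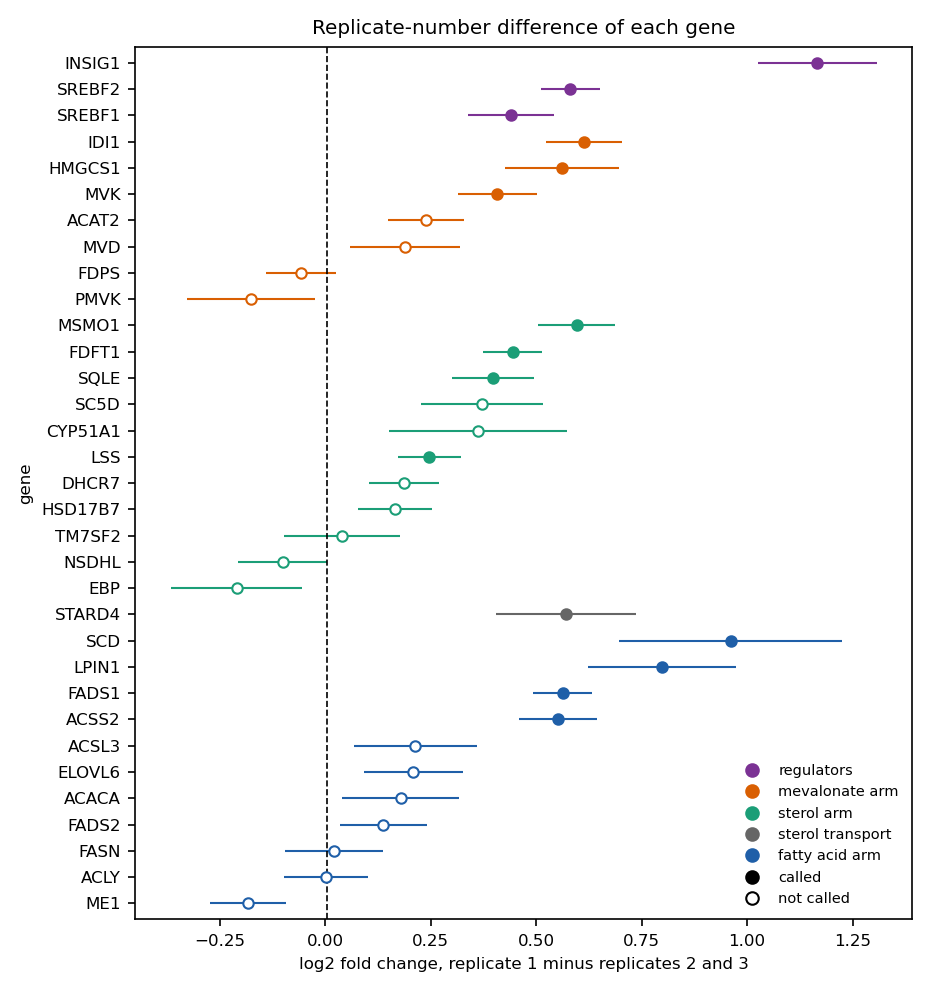
Log2 fold change of replicate 1 over replicates 2 and 3 for each gene, with its standard error, coloured by role. Filled circles are the 15 called genes, from LSS at 0.25 to INSIG1 at 1.17, the dashed line is the median of all tested genes, and FASN and ACLY lie on it.

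In the fatty acid arm 4 of 11 genes were called, and all 4 act outside the core steps from citrate to palmitate. SCD had 66.3, 214, 556, 199.9 and 189 CPM in replicate 1 of CSOX9, M228, M303, M379 and GFP, against 57.7 to 148 CPM (median 115). The CSOX9 library was below both others of its group, with a ratio of 0.575, while the ratio was 1.86 in M228, 4.03 in M303, 1.73 in M379 and 2.60 in GFP. The log2 fold change was 0.96 ± 0.26 (adjusted p = 0.0252). It was called in 9 of the 15 fits that left out 1 library.

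FADS1, a desaturase of polyunsaturated fatty acids, had 83.9, 80.0, 105, 86.4 and 82.7 CPM in replicate 1, against 49.1 to 65.6 CPM (median 59.9). The ranges were apart and the ratio was 1.35 to 1.71, at 0.56 ± 0.07 (adjusted p = 0.000346). ACSS2, which makes acetyl-CoA from acetate, had 102, 82.0, 122, 87.4 and 90.0 CPM, against 53.1 to 76.5 CPM (median 66.8). No library of the others reached it, at 0.55 ± 0.09 (adjusted p = 0.00167). LPIN1 had 15.9, 21.5, 28.8, 19.3 and 19.5 CPM, against 5.71 to 15.8 CPM (median 12.4). CSOX9 replicate 1 was only just above CSOX9 replicate 3. LPIN1 differed by 0.80 ± 0.18 (adjusted p = 0.00823).

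FASN showed no such difference, with 535, 539, 679.9, 656 and 577 CPM in replicate 1, against 357 to 748 CPM (median 615). Its log2 fold change was 0.02 ± 0.12. ACLY, which makes acetyl-CoA from citrate, was at 0.00 ± 0.10 and ACACA, the acetyl-CoA carboxylase that feeds FASN, at 0.18 ± 0.14. ELOVL6, an elongase of palmitate, was at 0.21 ± 0.12, ACSL3, an acyl-CoA synthetase, at 0.21 ± 0.15, FADS2 at 0.14 ± 0.10 and ME1 at -0.18 ± 0.09. None of these 7 was called. Whether the called and uncalled genes of the arm differ from each other was not tested.

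Counting sides in each group, with the same libraries and the same chosen genes, gave the same picture. For 11 of the 33 genes replicate 1 lay above both other libraries in all 5 groups (SREBF2, INSIG1, HMGCS1, MVK, IDI1, FDFT1, SQLE, MSMO1, ACSS2, FADS1 and LPIN1), or 33.3%, beside 7.82% of all genes. For 0 of the 33 it lay below both in all 5 groups, beside 8.95% of all genes. EBP and PMVK were below in 4 groups. The median log2 difference of the 33 genes within a group was 0.16 in CSOX9, 0.22 in M228, 0.38 in M303, 0.28 in M379 and 0.40 in GFP, while the median of all genes lay between -0.004 and 0.012.

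Other properties moved with the replicate number. The summed level of the 9 colon epithelial markers was 10370 to 14440 CPM in replicate 1, against 16440 to 25260 CPM in the others. The keratin genes KRT8, KRT18 and KRT19 were lower (log2 fold changes -0.67, -0.77 and -0.50), and CDX2, an intestinal transcription factor, was higher (0.46), all 4 called. The sum is mostly KRT8 and KRT18: the ratio of replicate 1 to the others was 0.968 to 1.04 over the groups for EPCAM, 0.980 to 1.16 for VIL1 and 0.986 to 1.27 for CDX1, none of them called. For KRT20 the ratio was 0.816 to 0.967 and for CDH1 0.755 to 1.01. Replicate 1 lay above both others in 0 groups for either gene. Mitochondrial genes took 4.62 to 7.27% of the reads in replicate 1, against 7.01 to 9.94% in the others. In 3 equal classes of gene length, 4.36% of the shortest genes, 9.25% of the middle ones and 10.2% of the longest were called higher. The 33 genes followed with 1 of 5, 7 of 15 and 7 of 13, and 18 were called higher when trends with length and GC content were removed, beside 10% of all genes. The part of the markers and of mitochondrial reads in the result was not tested. In bulk RNA, fewer cells of a type and less RNA per cell cannot be told apart.

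Among other genes of the pathway, none of the 4 that process SREBPs was called in the replicate comparison. MBTPS1, the first protease that cleaves SREBPs, had the smallest p of them, at 0.18 ± 0.06 (adjusted p = 0.0606). Of 4 other sterol synthesis genes none was called either, FAXDC2 having the smallest p at -0.56 ± 0.24 (adjusted p = 0.121). Of 6 genes of the sterol-sensing LXR receptors and their targets, 3 were called higher and 0 lower: the cholesterol exporters ABCA1 and ABCG1, and MYLIP, a ubiquitin ligase. ABCA1 had 0.486, 0.961, 2.39, 0.604 and 0.608 CPM in replicate 1, against 0 to 0.427 CPM, and its called difference lies near the detection limit. ABCG1 had 0.584, 0.833, 1.79, 0.671 and 0 CPM, against 0 to 0.325 CPM, likewise near that limit. Both genes passed the filter on low counts only through replicate 1 libraries, where they are high. Their calls are therefore no support for a difference by replicate number. MYLIP was at 0.43 ± 0.10 (adjusted p = 0.013).

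Of 7 genes that move and store sterols, SOAT1, which esterifies cholesterol, was higher at 0.64 ± 0.09 (adjusted p = 0.000722) and STARD3, a late endosomal sterol carrier, was lower at -0.35 ± 0.09 (adjusted p = 0.0192). Of 9 other fatty acid synthesis genes, 2 were higher and 1 lower. ACACB, the mitochondrial acetyl-CoA carboxylase, was at 0.64 ± 0.12 (adjusted p = 0.00251), and the elongases ELOVL7 and ELOVL1 were at 0.52 ± 0.14 and -0.40 ± 0.07. Of 8 fatty acid oxidation genes, 4 were higher and 0 lower. PDK4, a kinase that shuts pyruvate out of the citrate cycle, led at 1.15 ± 0.14 (adjusted p = 0.000305), followed by PPARA, a fatty acid sensor, at 0.58 ± 0.15, ACADM at 0.36 ± 0.08 and HADHB at 0.24 ± 0.07. Called genes of synthesis and of oxidation were thus both mostly higher in replicate 1. The shares of all genes were 7.93% higher and 7.52% lower, and these short lists were not tested against them.

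Without the block, the 38 genes of these pathway lists were not called in the group comparisons either (0 of 38 in each of the 10 by edgeR). DESeq2 was read for the 33 genes alone. Their number at an unadjusted p under 0.05 was 1 in CSOX9 against GFP, 3 in M228 against GFP, 4 in M303 against GFP and 2 in M379 against GFP, beside the 10.7%, 9.38%, 7.8% and 6.77% of all genes given above. Against CSOX9 the number was 1 for M228, 0 for M303 and 1 for M379, and between mutants it was 0 to 2.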

How the data were processed

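RNA sequencing counts of 15 libraries in 5 groups were used as deposited. Per the submitters' processing notes, the aligner was STAR 2.7.0a and the genome hg38. The deposited raw counts per gene were made with featureCounts 2.0.1 and Ensembl 101 of GRCh38, per the file headers, with no strand or pair option, so each mate was counted as a read and both strands together. The authors' gene lengths came with the counts. A normalized table was not used, since 3 of its columns match no label. The sources used here do not describe trimming. Symbols were taken from a reference gene table by Ensembl identifier (60401 of 60671 rows).

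Genes were filtered with filterByExpr, which kept 16160, and scaled by TMM in edgeR 4.0.16 (R 4.3.3). A quasi-likelihood F test, two-sided, used all 15 libraries with a mean per group (10 residual degrees of freedom) for 10 group comparisons. A term for replicate 1 was added for the replicate comparison. Benjamini-Hochberg adjustment ran over all tested genes of a comparison, and a gene is called where its adjusted p is under 0.05. CPM are TMM-scaled, RPKM are these per kilobase of gene length, and log2 fold changes carry standard errors. A floor is the CPM of 3 reads. Alternatives were DESeq2 1.42.0, RLE scaling, no filter, robust dispersion, a replicate block, 2-group fits, libraries left out, and length and GC trends removed. The steps were tested on simulated data. No pair of libraries of a group agreed within sampling noise.

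Some genes of these pathways are not reported here. The 33 genes and all lists were chosen with earlier results of these data known. Values by library, with the 10 libraries of replicates 2 and 3 as a range and median in the replicate comparison, are given for the 12 called members with the smallest adjusted p, for SREBF1, SREBF2, INSIG1, HMGCS1, SQLE, SCD and FASN, and for the member with the largest change in each comparison against GFP or CSOX9. Other pathway genes are given when called, or else the one with the smallest p of its list in the replicate comparison, and by counts in the group comparisons.

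Equal replicate numbers were taken to pair libraries where each pair's deviations from the group means correlated above 0.1. This held for M228, M303 and M379 against GFP (lowest 0.169), for M303 against CSOX9 (0.101) and between mutants, and not for CSOX9 against GFP (-0.03), M228 against CSOX9 or M379 against CSOX9. The pairing comes from these data, since the labels give no day or batch.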

Additional observations from a re-analysis of the deposited data

How the results depend on the processing

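For the 10 group comparisons, 135 of 140 alternative fits called none of the 33 genes. The exceptions were 4 fits without the filter on low counts, which called 1 in M303 against GFP (SCD), 2 in M303 against CSOX9 (SCD and SREBF1), 1 in M303 against M228 (SCD) and 1 in M379 against M303 (SCD, lower), and the replicate block, which called 1 in M228 against GFP (ME1). Every fit without 1 library gave 0. In the replicate comparison, 7 to 20 genes were called without 1 library, the lowest without M303 replicate 1. Replicate 1 minus replicate 2 gave 7 (beside 1.02% of all genes called higher, against 7.93% in the fit reported), a comparison chosen after seeing the data, as were replicate 1 minus replicate 3 (18, beside 17.5%), replicate 2 minus replicate 3 and the removal of length and GC trends (18, beside 10%). Without the GFP group the count was 18 (beside 15.3%). It was 15 with DESeq2 (9.47%), RLE scaling (8.02%), no filter (4.57%) and robust dispersion (7.89%). All 345 alternative values of the 15 called genes stayed above 0, and 7 of the 15 were called in every fit without 1 library. SCD in M379 against CSOX9 reversed with libraries 2 and 3 of every group alone, at -0.004 in place of 0.54, neither a call; the cause was not tested.

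With the replicate number as a block, the genes called of all tested were 79 in CSOX9 against GFP (5 without the block), 181 in M228 against GFP (39), 85 in M303 against GFP (19), 17 in M379 against GFP (6), 319 in M228 against CSOX9 (92), 259 in M303 against CSOX9 (62), 106 in M379 against CSOX9 (20), 14 in M303 against M228 (2) and 25 in M379 against M228 (7). The block changed no call of a member other than ME1. Calls over all genes also moved with the tool: DESeq2 gave 89 and no filter 212 in M303 against GFP. Depth limits ABCA1 and ABCG1, which had few reads in most libraries.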
